A study of Mus musculus with 36 samples.

Results

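The miR-23-27-24 miRNAs come from a pair of paralogous gene clusters, miR-23a-27a-24-2 (here the a cluster) and miR-23b-27b-24-1 (the b cluster). Out of the 1966 mature miRNA names counted in each library, 10 were followed, chosen by name. From the a cluster they are mmu-miR-23a-3p, mmu-miR-23a-5p, mmu-miR-27a-3p, mmu-miR-27a-5p and mmu-miR-24-2-5p, from the b cluster mmu-miR-23b-3p, mmu-miR-23b-5p, mmu-miR-27b-3p and mmu-miR-27b-5p, and from both mmu-miR-24-3p; the prefix mmu, for mouse, is left out below. The a cluster encodes 6 of the 10 and the b cluster encodes 5, because miR-24-3p is made from both.

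A miRNA hairpin is cut into a short duplex with a 5p and a 3p arm. An Argonaute (AGO) protein usually keeps a single arm, which then guides the repression of mRNAs that match its seed, bases 2 to 8 of the miRNA. The members of a cluster are transcribed together, so that changes in transcription reach all of them, while the amounts of the mature forms also depend on processing and on loading into AGO proteins. In mouse T cells the miR-23-27-24 clusters are known as restraints on effector differentiation, and miR-24 and miR-27 are known to limit Th2 responses and IL-4 production.

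The data are small RNA libraries of CD4+ TCRb+ T cells, sorted by flow cytometry from the spleens of C57BL/6J mice. They were made from naive cells or from cells cultured as T helper 2 (Th2) cells, the subset that drives type-2 immunity. The study asked how miRNAs differ when Argonaute proteins are lost. In the AGO1/3/4 experiment, the AGO134-/- genotype (AGO134 KO, lacking AGO1, AGO3 and AGO4) was compared with WT littermates in naive cells (4 KO and 4 WT libraries), Th2 cells at day 7 (4 and 4) and Th2 cells at day 14 (3 and 3). In the AGO2 experiment, the genotype CD4Cre;R26LSLeYFP;AGO2f/f (AGO2 KO) was compared with CD4Cre;R26LSLeYFP (Cre control) in naive cells (4 KO and 3 Cre libraries) and in Th2 cells (4 and 3). Both groups of that experiment carry the CD4-Cre transgene, which acts in T cells from the thymus onwards, and the Cre-dependent R26LSLeYFP reporter. The floxed AGO2 allele is therefore deleted only where Cre is active. The sample labels give 5 days of Th2 culture for that experiment, where the series text gives 7 days, and the label is used here. AGO mRNAs were not measured in these libraries, so that the genotype labels could not be checked.

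The AGO1/3/4 libraries held 64264 to 273724 miRNA counts and the AGO2 libraries 596 to 58357. The shallowest were the naive Cre control replicates B and C, with 596 and 2156 counts. Entries named STD, whose nature the labels do not give, took 32.0% to 86.7% of all counts and were left out of library sizes. Their share was higher in AGO134 KO than in WT at each stage, at 46.9% to 56.9% against 40.2% to 43.9% in naive cells, 40.5% to 45.4% against 35.7% to 37.7% at day 7, and 41.0% to 45.2% against 37.0% to 39.6% at day 14. In Th2 cells of the AGO2 experiment it was 52.8% to 64.8% in AGO2 KO and 32.0% to 38.5% in Cre control cells. All 6 miRNAs taken as CD4 T cell markers were counted in every group. Their summed level in naive cells was 140059 to 215724 CPM in AGO134 KO and 99936 to 121957 CPM in WT, and at day 7 it was 63798 to 68671 CPM in AGO134 KO and 52188 to 55458 CPM in WT, without overlap at either stage. At day 14 it was 44270 to 58977 CPM in AGO134 KO and 44184 to 46448 CPM in WT, with overlap. The genotypes of the AGO2 experiment also overlapped, in naive and in Th2 cells. Marker levels were taken under the main scaling only, which is described below. The myeloid markers, 2 arms of miR-223, summed to at most 42.6 CPM in any library, and those of red cells to at most 804 CPM, endothelial and stromal cells 1054 CPM, and epithelial, liver and muscle cells 4613 CPM; miR-451a, which defines red cells, was at 0 in every group except naive WT cells. The part of other cell types in the results was not tested.

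The sequences below show which members can share targets and which can share reads. They are the mature RNAs from RefSeq (GRCm38.p6), read 5′ to 3′, with the seed in capitals; 9 of the 10 members had an entry, and miR-23b-3p is named only. miR-24-1-5p, the 5p arm of the b cluster's miR-24 hairpin, is no member and is shown beside its counterpart from the a cluster.
miR-23a-3p: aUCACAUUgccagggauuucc
miR-27a-3p: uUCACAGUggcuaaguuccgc
miR-27b-3p: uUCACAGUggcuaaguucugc
miR-24-3p: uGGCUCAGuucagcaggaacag
miR-23a-5p: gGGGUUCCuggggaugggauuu
miR-24-2-5p: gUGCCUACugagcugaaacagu
miR-24-1-5p: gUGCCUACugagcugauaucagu

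miR-27a-3p and miR-27b-3p are both 21 bases long, share the seed UCACAGU and their first 18 bases, and differ by a single substitution, C19U (position counted from the 5′ end, base of miR-27a-3p first). Reads that end before that base cannot be assigned to either, and the separate values of these miRNAs are uncertain to that extent. The 5p arms are less alike, since miR-27a-5p and miR-27b-5p differ at 8 of 22 positions. miR-24-2-5p and miR-24-1-5p share their first 16 bases and hence a seed, while miR-24-3p is identical from both hairpins and its counts cannot be divided between the clusters. In GRCm38.p6 the a cluster lies at chr8:84208518-84208921 on the plus strand, where its 3 hairpins span 404 bases, and the Mir24-2 hairpin overlaps an exon of the long noncoding RNA gene Gm26532. The b cluster lies at chr13:63300484-63301275, also on the plus strand, over 792 bases. Its Mir23b hairpin is in an intron of 2010111I01Rik, and Mir27b and Mir24-1 overlap exons of that gene. The same stretch is antisense to an intron of Fancc, a gene of the Fanconi anaemia DNA repair pathway.

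Together the 10 miRNAs took a larger share of miRNA counts in Th2 cells than in naive cells of the AGO1/3/4 experiment. In AGO134 KO cells the share was 3.25% to 3.85% in naive cells, 7.37% to 7.73% at day 7 and 6.54% to 6.94% at day 14. In WT cells it was 3.46% to 3.72% in naive cells, 6.56% to 6.74% at day 7 and 7.17% to 7.57% at day 14. The KO libraries thus lay above every WT library at day 7 and below every WT library at day 14. These are bulk libraries, in which fewer cells of a type and less RNA per cell cannot be told apart.

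Levels below are counts per 1000000 miRNA counts (CPM), scaled between libraries by TMM, which takes most miRNAs as equal between libraries. Changes are log2 fold changes with their standard error (SE). A miRNA was called changed when the Benjamini-Hochberg adjusted p of edgeR's quasi-likelihood test was under 0.05. The labels do not say that replicates came from separate animals, so that p-values measure the spread between these libraries, which may be technical.

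miR-27b-3p, from the b cluster, was the most abundant member in every group. In WT cells it averaged 18290 ± 2402 CPM in naive cells, 21891 ± 1881 CPM at day 7 (SD, n = 4 each) and 25181 ± 1122 CPM at day 14 (SD, n = 3). It was the 17th most abundant of all miRNAs in naive WT cells, the 8th at day 7 and the 9th at day 14. miR-24-3p followed, at 6519 ± 189, 12774 ± 786 and 16382 ± 1303 CPM at the same stages. The next ranks changed with culture. Naive WT cells had more miR-23b-3p (3792 ± 461 CPM) than miR-23a-3p (3032 ± 169 CPM), with no overlap between libraries, and at day 7 the order was reversed, with 6385 ± 222 CPM of miR-23b-3p and 8161 ± 236 CPM of miR-23a-3p. At day 14 their WT ranges overlapped, while within each WT library miR-23a-3p was the higher, at 51.3% to 54.2% of the pair's counts. miR-27a-3p was the least abundant 3p arm, with 2596 ± 70.7 CPM in naive WT cells, 6111 ± 745 CPM at day 7 and 7943 ± 492 CPM at day 14, and its range overlapped that of miR-23b-3p at day 7 and at day 14. The 9 members with a sequence are 21 or 22 bases long, and levels were not corrected for length.

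All 10 members changed between naive cells and day 7 in the AGO1/3/4 experiment. In AGO134 KO cells 9 of the 10 members rose and 1, miR-23b-5p, fell; 74.1% of the 382 miRNAs tested were called in that comparison. The same counts, 9 higher and 1 lower, were found in WT cells, where 76.4% of all miRNAs were called. The members' median log2 fold change was 1.44 in AGO134 KO cells, beside 0.08 for all miRNAs tested, and 1.10 in WT cells, beside 0.11. The 7 endothelial and stromal markers summed to 135 to 579 CPM in naive AGO134 KO cells and 679 to 1001 CPM at day 7, and to 142 to 378 CPM in naive WT cells and 882 to 1054 CPM at day 7; the part of such cells in the increases was not tested.

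The 3p arms made only by the a cluster had larger increases than those made only by the b cluster in both genotypes. miR-24-3p, which both clusters make, lay between them. In AGO134 KO cells the increases were 1.64 for miR-23a-3p, 1.75 for miR-27a-3p, 1.23 for miR-24-3p, 0.88 for miR-23b-3p and 0.32 for miR-27b-3p (adjusted p at most 0.0117). In WT cells miR-23a-3p rose by 1.43 (SE 0.10, adjusted p = 5.55e-13), miR-27a-3p by 1.24 (SE 0.12, adjusted p = 1.19e-10) and miR-24-3p by 0.97 (SE 0.12, adjusted p = 3.1e-08) between naive cells and day 7. miR-23b-3p rose by 0.75 (SE 0.12, adjusted p = 1.33e-06). miR-27b-3p rose by 0.26 (SE 0.11, adjusted p = 0.037), with overlapping libraries, and it was called in 1 of the 8 fits that each left out 1 library. None of these directions flipped under the other scalings tried.

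The 5p arms of the a cluster were scarce in naive cells, and in WT they rose more than any 3p arm. miR-24-2-5p had 21.3 to 44.1 CPM in naive WT libraries, 333 to 541 CPM at day 7 and 548 to 588 CPM at day 14, and it rose by 3.65 (SE 0.22, adjusted p = 5.5e-15) from naive cells to day 7. miR-27a-5p had 3 counts in the 4 naive WT libraries together and 132 in the 4 at day 7; its fitted increase of 4.85 rests on those 3 counts. miR-23a-5p averaged 45.9 ± 22.6 CPM in naive WT cells, 200 ± 59.3 CPM at day 7 and 388 ± 87.8 CPM at day 14. In the b cluster miR-27b-5p averaged 116 ± 11.9, 195 ± 43.2 and 448 ± 90.1 CPM at the same stages. The large rise was not particular to the a cluster. miR-24-1-5p, the b cluster's counterpart of miR-24-2-5p, averaged 9.05 ± 5.05, 72.2 ± 12.6 and 112 ± 10.3 CPM in WT. It had 8 counts in the naive WT libraries and 88 at day 7. Its WT increase to day 7 was 2.999 and was called, also above every 3p arm. miR-23b-5p went the other way at day 7. It had 19 counts in the 4 naive AGO134 KO libraries, 6 in the 4 at day 7 and 77 in the 3 at day 14, and 41, 9 and 79 in the WT libraries of the same stages. From naive cells to day 7 it was called lower in AGO134 KO (adjusted p = 0.00884), where STD scaling gave -1.28 and no call, and in WT (-2.48, SE 0.51, adjusted p = 8.05e-05).

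From day 7 to day 14 fewer members changed. In AGO134 KO cells 3 of the 10 members rose and 3 fell, with 44.8% of all miRNAs called. Those that rose were 5p arms, miR-23a-5p (0.80), miR-23b-5p (3.71) and miR-27b-5p (1.06). Those that fell were miR-23a-3p (-0.27, adjusted p = 0.0422), miR-27a-3p (-0.38, adjusted p = 0.0123) and miR-24-2-5p (-0.64, adjusted p = 0.00383), all from the a cluster. Of the 7 fits that each left out 1 library, the call of miR-23a-3p was lost in all, and that of miR-27a-3p in 3. In WT cells 7 of the 10 rose and 0 fell, with 50.0% of all miRNAs called: miR-23a-3p (0.26, adjusted p = 0.0433), miR-27a-3p (0.38), miR-24-3p (0.36), miR-23b-3p (0.43), miR-23a-5p (0.93), miR-23b-5p (3.57) and miR-27b-5p (1.18). Leaving out 1 library at a time gave 4 to 6 members, 4 without WT replicate 2 at day 14, and miR-23a-3p was called in 0 of those 7 fits.

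**Figure D1:**
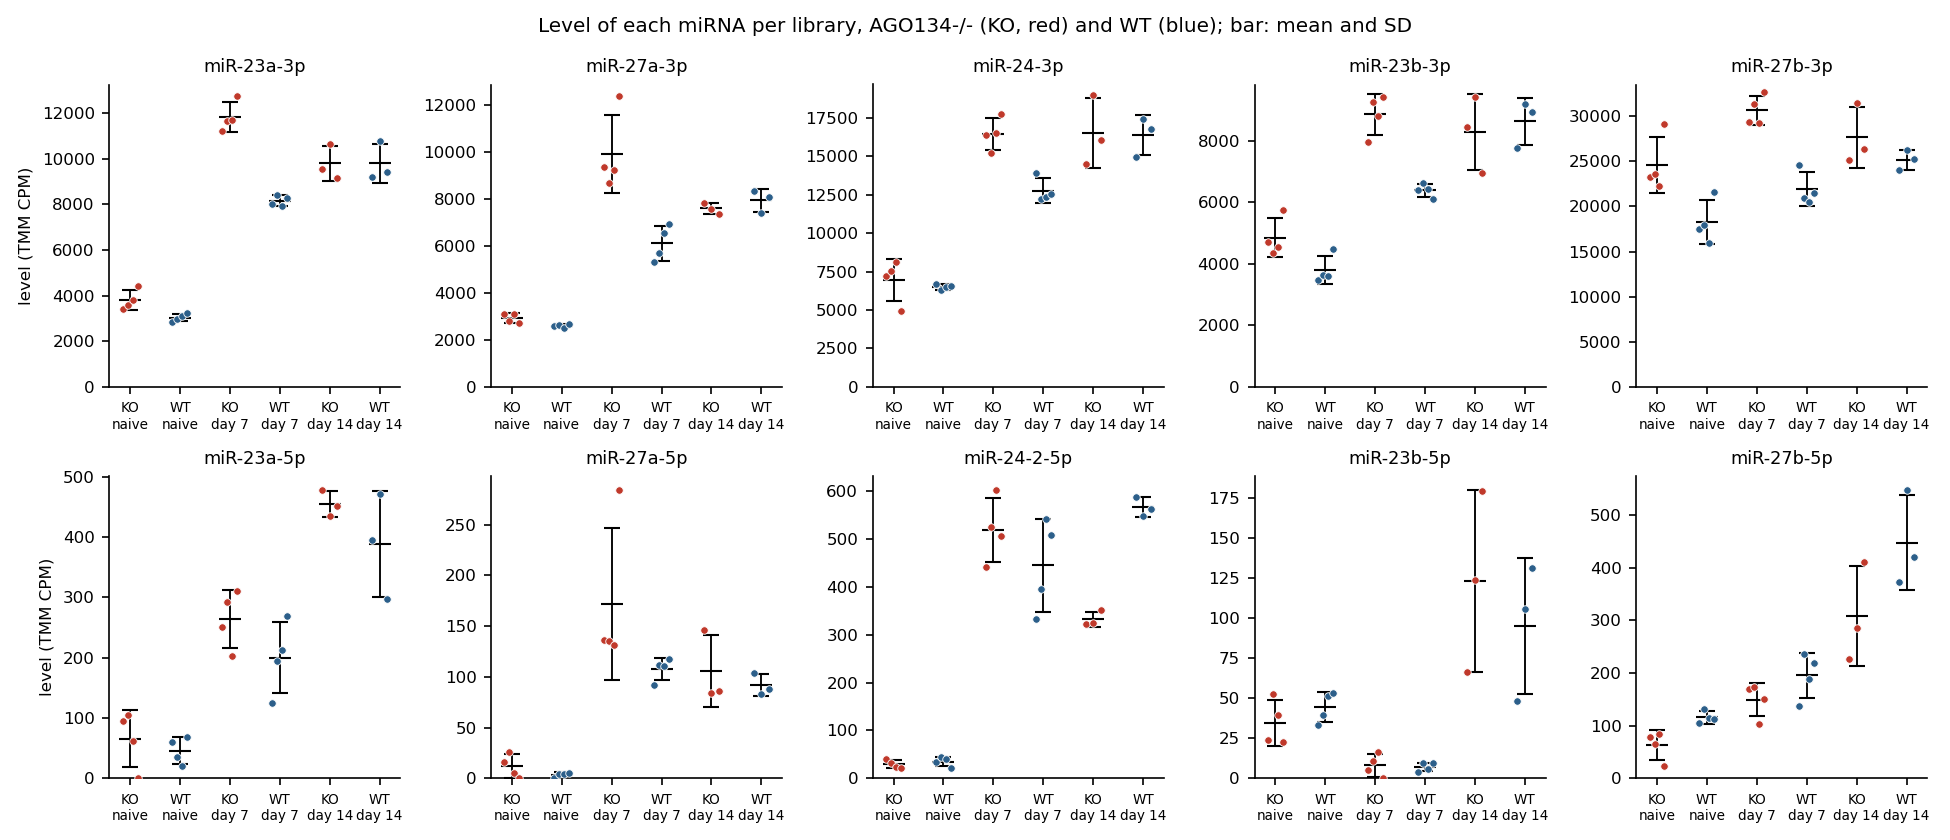
Level of each of the 10 miRNAs per library (y axis, TMM CPM; each panel has its own scale from 0) in AGO134 KO (red) and WT (blue) cells that were naive, at day 7 or at day 14 of Th2 culture; bars give the mean and SD. At day 7 the KO libraries of the 5 3p arms lie above all WT libraries, a difference that depends on the scaling, and at day 14 the KO libraries of miR-24-2-5p lie below all WT libraries.

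The balance between the clusters can be read inside each library, where scaling has no part. In the AGO1/3/4 experiment it lay further towards the a cluster in day 7 libraries than in naive libraries, without overlap. The log2 ratio of miR-23a-3p to miR-23b-3p was -0.34 ± 0.10 in naive AGO134 KO cells and -0.32 ± 0.11 in naive WT cells, 0.42 ± 0.07 in KO and 0.35 ± 0.06 in WT at day 7 (SD, n = 4 each), and 0.25 ± 0.13 in KO and 0.18 ± 0.09 in WT at day 14 (SD, n = 3 each). In summed counts of WT libraries the a member took 44.6% of the pair in naive cells, 56.1% at day 7 and 53.1% at day 14. All day 7 libraries lay above all naive libraries in each genotype (difference of means 0.76 in KO and 0.67 in WT; two-sided exact permutation test p = 0.02857 in each, the smallest that 4 against 4 can give; adjusted p = 0.1048 over 22 ratio tests). In WT cells the ratio was lower at day 14 than at day 7, with a difference of -0.17 and without overlap (exact permutation p = 0.02857, adjusted p = 0.1048), and in AGO134 KO cells these stages overlapped.

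The miR-27 pair had the same order of naive and day 7 libraries. Its log2 ratio of a to b was -3.06 ± 0.26 in naive AGO134 KO cells and -2.81 ± 0.15 in naive WT cells, -1.64 ± 0.19 in KO and -1.84 ± 0.27 in WT at day 7 (SD, n = 4 each), and -1.86 ± 0.19 in KO and -1.67 ± 0.15 in WT at day 14 (SD, n = 3 each). Summed over WT libraries, miR-27a-3p took 12.5% of the miR-27 3p counts in naive cells, 22.2% at day 7 and 24.04% at day 14. Day 7 again lay wholly above naive cells, by 1.42 in KO and 0.96 in WT (exact permutation p = 0.02857 and adjusted p = 0.1048 in each). Day 14 minus day 7 was 0.18 in WT, with overlap, against -0.17 for the miR-23 pair. The genotypes overlapped in both ratios at every stage. Their differences were between -0.25 and 0.20, with adjusted p of 0.2245 or more, and with 3 libraries against 3 at day 14 the exact test cannot go below p = 0.1. None of the 22 ratio tests passed adjustment.

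Within a cluster the proportions also shifted. In the b cluster the log2 ratio of miR-27b-3p to miR-23b-3p was 2.34 ± 0.07 in AGO134 KO and 2.27 ± 0.08 in WT naive cells, 1.79 ± 0.07 in KO and 1.77 ± 0.13 in WT at day 7 (SD, n = 4 each), and 1.74 ± 0.17 in KO and 1.55 ± 0.07 in WT at day 14 (SD, n = 3 each). In the a cluster the mean log2 ratio of miR-27a-3p to miR-23a-3p stayed between -0.42 and -0.22 over the 6 groups. These values are a description and were not tested.

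**Figure D2:**
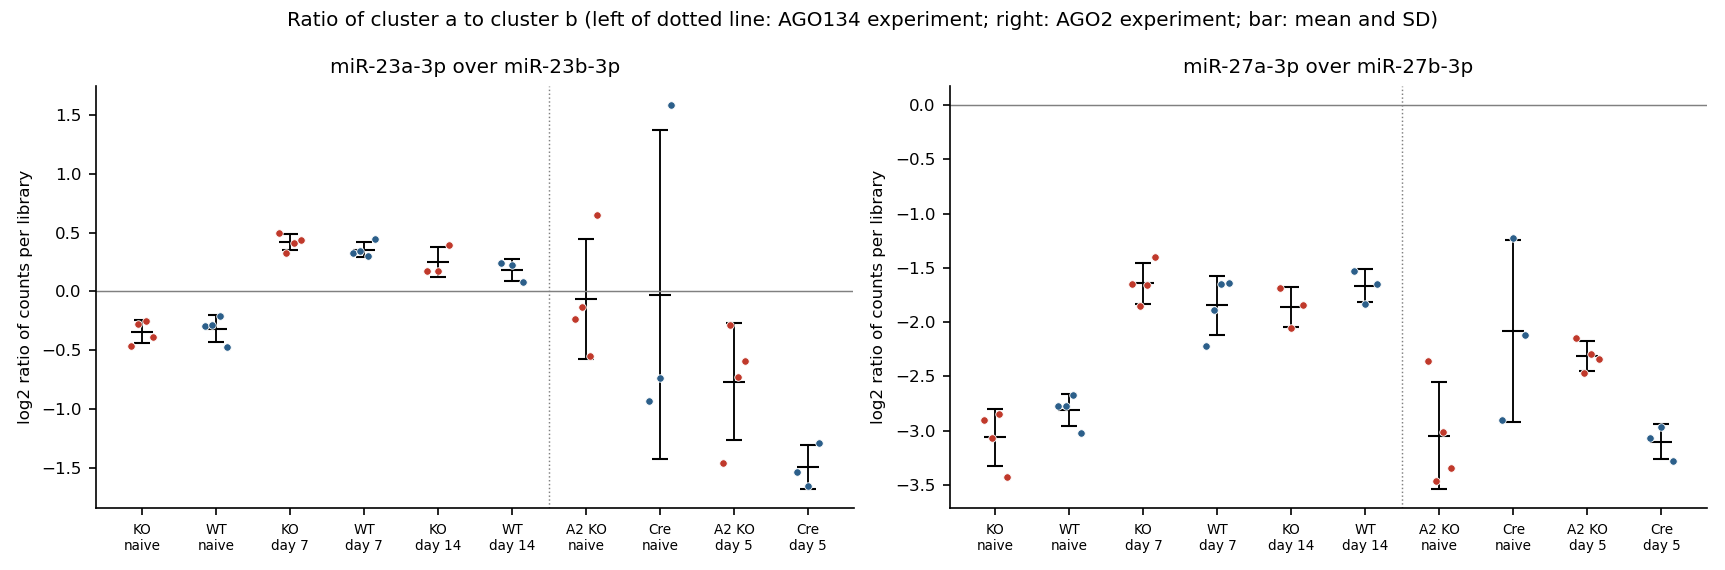
Log2 ratio of counts of the a member over the b member per library (y axis), for miR-23-3p and miR-27-3p, by group (x axis), with KO in red and its control in blue; bars give the mean and SD, and the dotted line divides the AGO1/3/4 experiment (left) from the AGO2 experiment (right). In the AGO1/3/4 experiment both ratios are higher in day 7 than in naive libraries of either genotype, with no overlap, and KO and WT overlap at each stage.

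The 3 miRNAs outside the clusters whose profile over the 6 groups was closest to that of the a cluster's 3p arms were miR-21a-5p, miR-322-5p and miR-350-3p. Their root mean square differences were 0.17, 0.19 and 0.20 on the log2 scale, among 246 candidates with a mean of at least 100 CPM. Closest to the b cluster were miR-155-5p (0.18), miR-17-3p (0.22) and miR-130b-3p (0.22). The a profile was the mean of miR-23a-3p, miR-27a-3p and miR-24-3p, the last of which both clusters make. The b profile was the mean of miR-23b-3p and miR-27b-3p. For scale, the a members lay 0.07 to 0.12 from their own mean and the b members 0.15.

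In naive cells, 3 of the 10 members were called higher in AGO134 KO than in WT and 0 lower, with 18.3% of the 382 miRNAs called. The members' median log2 fold change was 0.25 and that of all miRNAs -0.05. miR-27b-3p had 23287, 23556, 22234 and 29134 CPM in KO, against 17533, 17995, 15979 and 21652 CPM in WT (log2 fold change 0.42, SE 0.11, adjusted p = 0.00822). All KO libraries lay above all WT libraries. miR-23a-3p had 3426, 3573, 3821 and 4409 CPM in KO, against 2831, 2967, 3109.9 and 3219 CPM in WT (0.32, SE 0.10, adjusted p = 0.0327), again without overlap. miR-23b-3p had 4719, 4340.2, 4539.6 and 5759 CPM in KO, against 3468 to 4475 CPM in WT (0.34, SE 0.12, adjusted p = 0.0424), and here a WT library reached into the KO range.

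These naive calls rest on the scaling. TMM factors were 0.69 to 0.91 in KO and 0.96 to 1.10 in WT, and relative to plain library size the changes became 0.10 for miR-27b-3p, 0.01 for miR-23a-3p and 0.03 for miR-23b-3p, with no call. Scaled to the STD entries the same 3 members turned to -0.38, -0.47 and -0.45 and were called lower, as were miR-27a-3p, miR-24-3p and miR-27b-5p. The median of all miRNAs moved as well, to -0.33 under library size and -0.77 under STD scaling, and the members' median stayed above it by 0.30 under TMM, 0.28 under library size and 0.25 under STD scaling, but by 0.03 after loess offsets against abundance. Leaving out WT replicate 1, 2 or 3 left 0 members called, and leaving out KO replicate 4, the shallowest, left 1. The other members were not called under TMM, and under library size miR-27b-5p was called lower. miR-24-3p had 4949 to 8128 CPM in KO, against 6269 to 6723 CPM in WT. miR-27b-5p had 10, 10, 15 and 1 counts in KO, against 28, 30, 29 and 21 in WT, at 22.5 to 84.9 CPM and 104 to 132 CPM (-0.69, SE 0.31, adjusted p = 0.129); the groups did not overlap.

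At day 7, all 5 3p arms were called higher in AGO134 KO than in WT and no member lower, with 14.4% of all miRNAs called. The members' median was 0.42, beside -0.02 for all miRNAs. miR-27a-3p, whose family is known to repress the Th2 transcription factor GATA3, had 9361, 8652, 9239 and 12368 CPM in KO, against 5307, 5679, 6546 and 6914 CPM in WT. Its log2 fold change was 0.69 (SE 0.11, adjusted p = 0.000477). miR-23a-3p had 11222, 11641, 11708 and 12749 CPM in KO, against 8029.9, 8419.6, 7904 and 8290.3 CPM in WT (0.54, SE 0.10, adjusted p = 0.000998). The libraries of the genotypes did not overlap for either miRNA.

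The b cluster's 3p arms differed by similar amounts. miR-27b-3p had 29383, 31307, 29222 and 32684 CPM in KO, against 24643, 20957, 20472 and 21491 CPM in WT (0.49, SE 0.11, adjusted p = 0.00525). miR-23b-3p had 7951, 9257, 8795 and 9422 CPM in KO, against 6406, 6629, 6417 and 6089.6 CPM in WT (0.47, SE 0.12, adjusted p = 0.0077). miR-24-3p, which both clusters make, had 16365, 15245, 16511 and 17788 CPM in KO, against 13933, 12221.5, 12365 and 12577 CPM in WT (0.37, SE 0.12, adjusted p = 0.0346). All 3 were without overlap. miR-27a-5p did not overlap either, with 131 to 284 CPM in KO against 91.6 to 117 CPM in WT, and missed the threshold (0.59, SE 0.25, adjusted p = 0.121; -0.035 under STD scaling).

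Scaling mattered here too. Under library size the 5 values ranged from 0.06 for miR-24-3p to 0.38 for miR-27a-3p, and miR-27a-3p alone was called. Under STD scaling they were -0.089 for miR-23a-3p, 0.05 for miR-27a-3p, -0.25 for miR-24-3p, -0.15 for miR-23b-3p and -0.13 for miR-27b-3p, with none of these called; miR-27b-5p, at -1.01, was called lower there. The median of all miRNAs was -0.31 under library size and -0.63 under STD scaling, and the members' median lay above it by 0.43, 0.43 and 0.42 under TMM, library size and STD scaling and by 0.31 after loess offsets. In the 8 fits that left out 1 library, miR-23a-3p, miR-27a-3p, miR-23b-3p and miR-27b-3p were called each time and miR-24-3p in 2. The test of whether the KO effect differed between day 7 and naive cells called 0 members by edgeR (2.36% of all miRNAs called), with 1 at an unadjusted p under 0.05, miR-27a-3p (0.52, SE 0.16, adjusted p = 0.0836); DESeq2 called 0 as well.

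At day 14, 1 of the 10 members was called, lower, in AGO134 KO than in WT, with 19.6% of all miRNAs called. The members' median and that of all miRNAs were both 0.01. miR-24-2-5p, the 5p arm of the a cluster's miR-24 hairpin, had 322, 325 and 351 CPM in KO (68, 50 and 86 counts), against 588, 548 and 563 CPM in WT (170, 145 and 159 counts). All KO libraries lay below all WT libraries, and the log2 fold change was -0.77 (SE 0.18, adjusted p = 0.00236). It was called lower under all 9 other settings and in each of the 6 fits that left out 1 library, at -0.80 to -0.73. miR-24-1-5p, which has the same seed and comes from the b cluster, had 56.7, 58.5 and 81.5 CPM in KO, in order of level, against 104, 109.6 and 124 CPM in WT. It too was without overlap and missed the threshold (mmu-miR-24-1-5p: -0.75, SE 0.30, adjusted p = 0.0791).

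The 3p arm of the same hairpins was not called. miR-24-3p had 14504, 18976 and 16094 CPM in KO, against 14928, 17444 and 16774 CPM in WT (0.01, SE 0.14, adjusted p = 0.971). The log2 ratio of miR-24-2-5p to miR-24-3p was -5.62 ± 0.21 in KO and -4.85 ± 0.17 in WT (SD, n = 3 each), without overlap (exact permutation p = 0.1, the smallest possible). Since miR-24-3p is made by both clusters, this ratio is not the balance of a single hairpin. No other 3p arm was called, and the approximate 95% intervals of the 5 log2 fold changes lay between -0.32 and 0.39 under TMM; under STD scaling the 5 values were -0.53 to -0.33, and miR-23b-3p was called lower. Their libraries overlapped, with miR-23a-3p at 9548, 10655 and 9159.8 CPM in KO against 9186, 10763 and 9419 CPM in WT, and miR-27b-3p at 25144, 31445 and 26383 CPM in KO against 24018, 26257 and 25269 CPM in WT. miR-27a-3p had 7841, 7580.1 and 7358 CPM in KO against 8348, 7396 and 8085 CPM in WT (-0.07, SE 0.13, adjusted p = 0.805). miR-27b-5p had 227 to 412 CPM in KO and 374 to 548 CPM in WT (-0.52, SE 0.22, adjusted p = 0.0879).

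Whether the KO effect itself changed from day 7 to day 14 was tested directly, and 4 members had a lower effect at day 14, with 12.0% of all miRNAs called. They were miR-24-2-5p (-0.98, SE 0.24, adjusted p = 0.00528), miR-27a-3p (-0.76, SE 0.17, adjusted p = 0.0033), miR-23a-3p (-0.54, SE 0.15, adjusted p = 0.0194) and miR-23b-3p (-0.53, SE 0.18, adjusted p = 0.046). miR-24-2-5p had an effect of 0.21 at day 7 and -0.77 at day 14. In the 14 fits that left out 1 library, miR-24-2-5p and miR-27a-3p were called in all 14, miR-23a-3p in 2 and miR-23b-3p in 0. Only the directions held under all scalings: library size left 1 of the 4 called, miR-27a-3p, and STD scaling left 0.

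**Figure D3:**
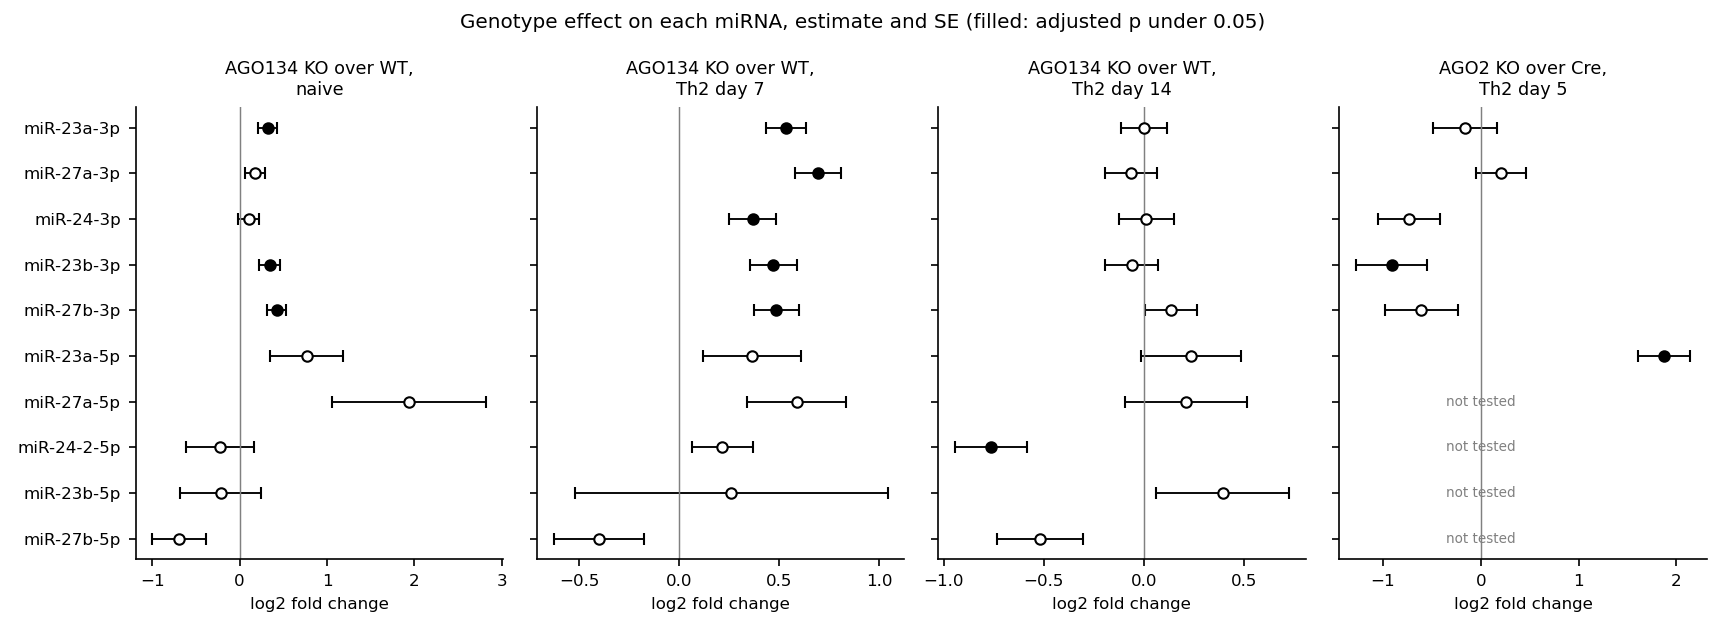
Log2 fold change of each miRNA between genotypes (x axis; point, estimate; bar, SE; filled, adjusted p under 0.05) for AGO134 KO over WT in naive cells and at days 7 and 14, and for AGO2 KO over Cre control at day 5. Under TMM scaling the 3p arms lie to the right of 0 at day 7, from 0.37 to 0.69, and between -0.07 and 0.14 at day 14; scaled to the STD entries, all of them lie below 0 in naive cells and at day 14, and all except miR-27a-3p at day 7.

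The balance of the arms was compared inside each library for the 5 hairpins that have both arms among the members, over 25 tests, none of which passed adjustment (lowest adjusted p = 0.2041). For miR-27b, the log2 ratio of miR-27b-5p to miR-27b-3p was -8.57 ± 0.81 in naive AGO134 KO cells and -7.27 ± 0.24 in naive WT cells (SD, n = 4 each), without overlap (exact permutation p = 0.02857, the smallest possible, adjusted p = 0.2041). The 5p arm took 0.31% of the summed miR-27b counts in KO and 0.63% in WT. At day 7 the ratio was -7.68 ± 0.31 in KO and -6.82 ± 0.45 in WT (SD, n = 4 each; exact permutation p = 0.05714), and at day 14 it was -6.51 ± 0.45 in KO and -5.83 ± 0.22 in WT (SD, n = 3 each; exact permutation p = 0.2), with overlap at both stages. The KO value was the lower at each of the 3 stages. The naive KO ratio rests on 36 miR-27b-5p counts in 4 libraries.

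In the AGO2 experiment the libraries were shallow, and 6 of the 10 members passed the filter on low counts. miR-27a-5p, miR-24-2-5p, miR-23b-5p and miR-27b-5p were not tested; miR-23b-5p had 0 counts in all 14 libraries. miR-24-2-5p was detected at day 5 only, with 34 counts in AGO2 KO (375 ± 292 CPM, SD, n = 4) and 69 counts in Cre control cells (375 ± 96.5 CPM, SD, n = 3). A count of 0 allows up to 51.4 CPM in the deepest of these libraries and up to 5034 CPM in the shallowest. In naive cells 0 of the 6 tested members were called, 0 were at an unadjusted p under 0.05, DESeq2 called 0, and 9.18% of the 98 miRNAs tested were called. miR-27b-3p had 5295, 12091, 8712 and 5769.9 CPM in AGO2 KO, against 8459, 3029.6 and 2187 CPM in Cre control cells, of which the last 2 rest on 3 and 6 counts. The approximate 95% intervals of the 6 log2 fold changes lay between -1.49 and 2.34.

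At day 5, 2 of the 6 tested members were called in AGO2 KO Th2 cells, 1 higher and 1 lower, with 44.9% of all miRNAs called. The members' median was -0.38 and that of all miRNAs 0.06. miR-23a-5p, the minor arm of the miR-23a hairpin in the AGO1/3/4 experiment, had 2565, 3287, 2573 and 2682 CPM in AGO2 KO, on 329 counts in all, against 791, 773 and 639 CPM in Cre control cells, on 147 counts. The groups were far apart, and the log2 fold change was 1.87 (SE 0.27, adjusted p = 1.01e-05). It was called in all 7 fits that left out 1 library, at 1.38 to 2.02. Scaled to the STD entries it was 0.13 (adjusted p = 0.809).

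The 3p arm of the same hairpin was not called under TMM. Scaled to the STD entries it was called lower (-1.805, adjusted p = 0.001). miR-23a-3p had 686, 1709, 1611 and 1521 CPM in AGO2 KO, against 1682, 1113 and 1790.2 CPM in Cre control cells (-0.16, SE 0.33, adjusted p = 0.683), and the groups overlapped. The 5p arm therefore took 61.5% to 78.9% of miR-23a counts per library in AGO2 KO (329 of 499 counts in sum), against 26.3% to 41.0% in Cre control cells. On the log2 scale the ratio of 5p to 3p was 1.07 ± 0.55 in KO (SD, n = 4) and -1.02 ± 0.48 in Cre control cells (SD, n = 3), without overlap (exact permutation p = 0.02857, the smallest possible; adjusted p = 0.2041). This ratio is taken within a library and does not depend on the scaling. The other ratios of 5p to 3p were also higher in AGO2 KO at day 5. The differences were 2.12 for miR-27a, 0.43 for miR-24, 2.20 for miR-23b and 1.93 for miR-27b, the last 2 without overlap. miR-27a-5p had 5 counts in KO and 1 in Cre control cells, and miR-27b-5p had 11 and 5. With 0 counts of miR-23b-5p, its ratio rests on the pseudocount and the 3p counts. In naive cells the 5p arm had 8 of 51 miR-23a counts in AGO2 KO and 2 of 9 in Cre control cells. In the AGO1/3/4 experiment it took 0% to 4.76% in every library, so that the Cre control libraries of day 5 lay above all WT libraries. The experiments were not compared by a test. miR-5099, a miRNA that took 9.85% to 65.8% of counts in the AGO2 libraries against 0.84% to 1.87% in the AGO1/3/4 libraries, also set them apart, and its part in the arm shares was not tested.

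**Figure D4:**
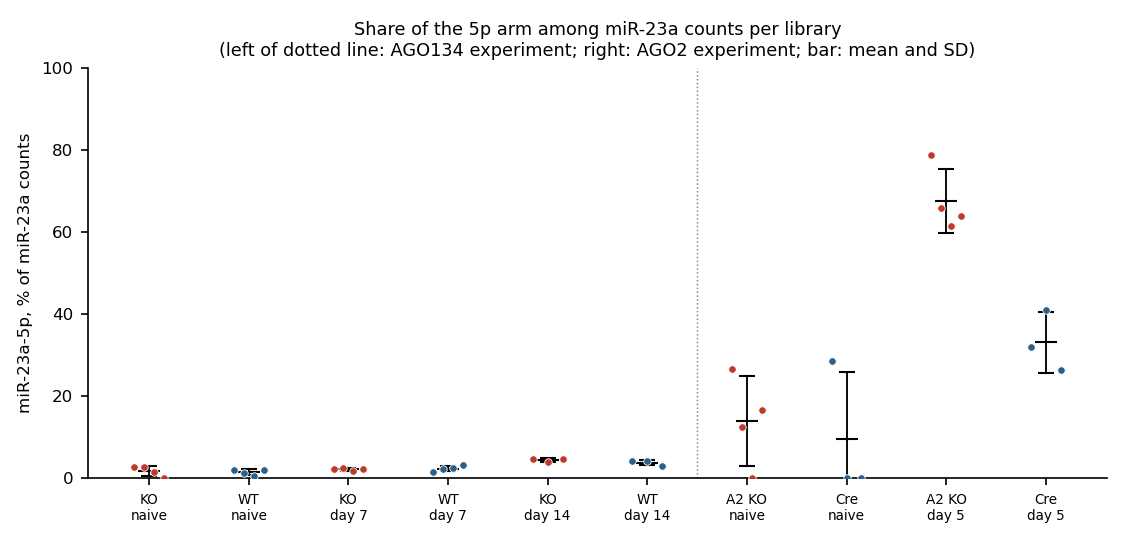
Share of miR-23a-5p among all miR-23a counts per library (y axis, percent, 0 to 100) by group (x axis), with KO in red and its control in blue; bars give the mean and SD, and the dotted line divides the AGO1/3/4 experiment (left) from the AGO2 experiment (right). The 4 AGO2 KO libraries at day 5 lie between 61.5% and 78.9%, above the 3 Cre control libraries, and all AGO1/3/4 libraries lie at or below 4.76%.

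Of the b cluster, miR-23b-3p was called lower in AGO2 KO Th2 cells. It had 1915, 2103, 2677 and 2302 CPM in KO, against 4889.9, 3526 and 4399 CPM in Cre control cells (-0.91, SE 0.36, adjusted p = 0.0449), without overlap. Leaving out KO replicate D, F or G left 1 member called, and the loess setting gave miR-23b-3p an adjusted p of 0.0835. miR-27b-3p, at 11234, 13409, 10239 and 15454 CPM in KO against 15701, 16648 and 25190.0 CPM in Cre control cells, did not overlap and was not called (-0.61, SE 0.37, adjusted p = 0.187). Under STD scaling miR-27b-3p was called lower, at -2.249 (adjusted p = 0.000141). miR-24-3p had 1878, 1578, 1533 and 2122 CPM in KO, against 2643, 1992 and 4424 CPM in Cre control cells (-0.73, SE 0.32, adjusted p = 0.0627), and it passed the threshold under 7 of the 8 other settings.

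miR-27a-3p was not called at day 5, with 2529, 2366, 2079 and 3043 CPM in AGO2 KO against 1866, 2132 and 2583 CPM in Cre control cells (0.21, SE 0.25, approximate 95% interval -0.29 to 0.70, adjusted p = 0.513), a direction that turned to -1.46 under STD scaling. The log2 ratio of miR-27a-3p to miR-27b-3p was -2.31 ± 0.13 in KO (SD, n = 4) and -3.10 ± 0.16 in Cre control cells (SD, n = 3), without overlap (exact permutation p = 0.02857, the smallest possible; adjusted p = 0.1048). miR-27a-3p was 16.9% of summed miR-27 3p counts in KO and 10.6% in Cre control cells. For miR-23 the ratio of a to b was -0.77 ± 0.49 in KO (SD, n = 4) and -1.50 ± 0.19 in Cre control cells (SD, n = 3), with overlap (exact permutation p = 0.08571).

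The ratios of a to b were also compared between Th2 and naive cells of the AGO2 experiment, where 3 of the 4 differences were negative. For miR-23 the ratio in AGO2 KO was -0.77 at day 5 and -0.06 ± 0.51 in naive cells (difference -0.70, with overlap, exact permutation p = 0.05714), and in Cre control cells it was -1.50 at day 5 and -0.03 ± 1.40 in naive cells (difference -1.47, without overlap, exact permutation p = 0.1, the smallest possible). For miR-27 it was -2.31 at day 5 and -3.04 ± 0.49 in naive AGO2 KO cells (difference 0.73, with overlap, exact permutation p = 0.05714), and -3.10 at day 5 and -2.08 ± 0.84 in naive Cre control cells (difference -1.02, without overlap, exact permutation p = 0.1). The naive Cre control values rest on 7 counts of miR-23a-3p, 12 of miR-23b-3p and 10 of miR-27a-3p. The difference between the experiments was not tested.

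Between naive and day 5 AGO2 KO cells, 2 of the 6 tested members rose (51.0% of all miRNAs called), miR-23a-5p by 3.55 (SE 0.39, adjusted p = 2.58e-07) and miR-27a-3p by 1.47 (SE 0.30, adjusted p = 0.000656), both from the a cluster. In Cre control cells 5 of the 6 rose (56.1% of all miRNAs called), with changes of 1.33 for miR-27a-3p, 1.62 for miR-24-3p, 1.88 for miR-27b-3p, 2.04 for miR-23b-3p and 2.05 for miR-23a-5p. Leaving out the naive Cre control libraries B and C together, of 596 and 2156 counts, left 0 of them called. The test of whether the AGO2 KO effect differed between day 5 and naive cells called 0 members by edgeR (12.2% of all miRNAs called), with 1 at an unadjusted p under 0.05, miR-27b-3p (-1.22, SE 0.58, adjusted p = 0.171); DESeq2 called 1.

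**Figure D5:**
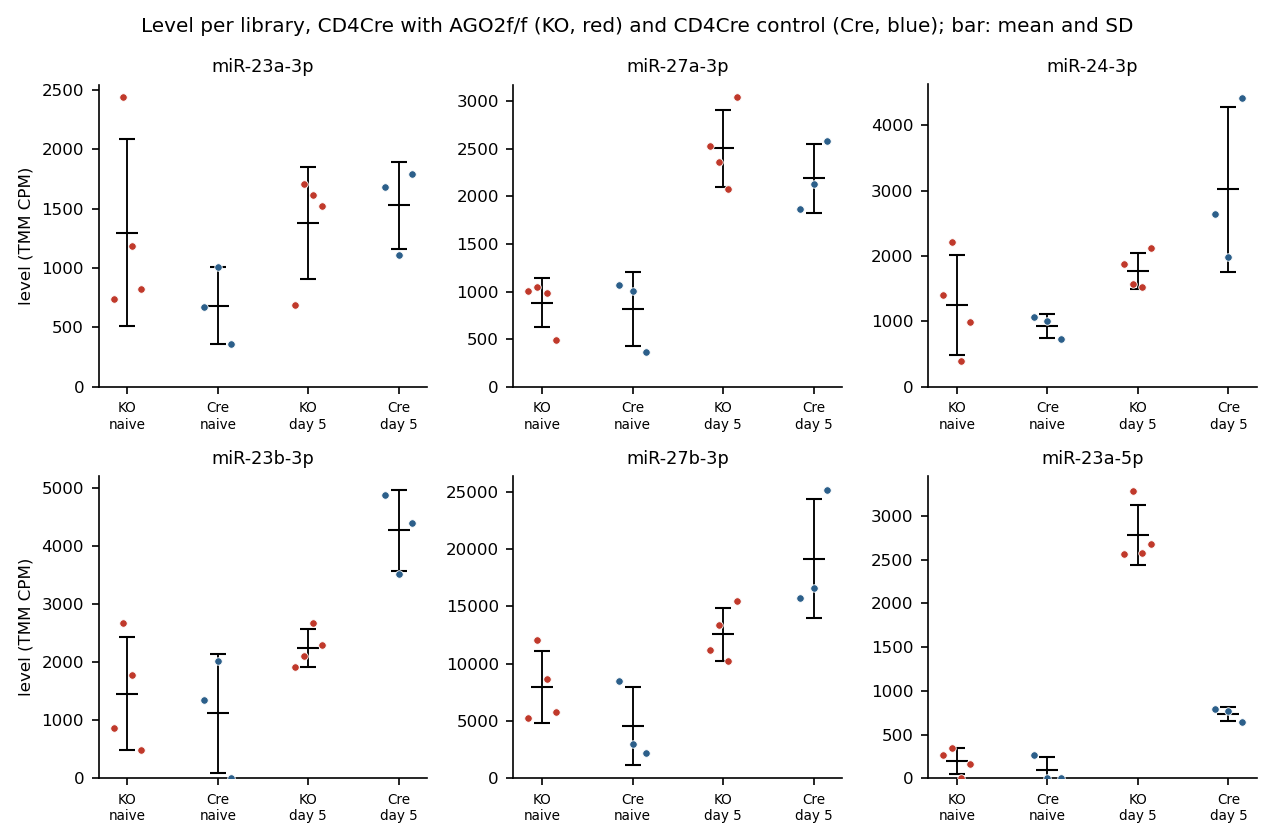
Level per library (y axis, TMM CPM; each panel has its own scale from 0) of the 6 miRNAs tested in the AGO2 experiment, in AGO2 KO (red) and Cre control (blue) cells that were naive or at day 5 of Th2 culture; bars give the mean and SD. At day 5 miR-23a-5p lies at 2565 to 3287 CPM in KO and at 639 to 791 CPM in Cre control cells under TMM, a gap that closes under STD scaling, and miR-23b-3p and miR-27b-3p lie lower in KO.

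Other miRNAs that are known regulators of activated T cells were counted from a list of 12, among them miR-155-5p, miR-21a-5p, miR-146a-5p, miR-150-5p and miR-181a-5p. In AGO134 KO against WT, 4 rose and 1 fell in naive cells, 5 rose and 0 fell at day 7, and 2 rose and 2 fell at day 14, with medians of 0.27, 0.36 and 0.15. Of the 8 that could be tested in AGO2 KO against Cre control cells, 1 rose in naive cells and 2 rose at day 5, and none fell. Over all miRNAs tested, 18.3%, 14.4% and 19.6% were called in the comparisons of AGO134 KO, and 9.18% and 44.9% in those of AGO2 KO. The list was not run under other scalings.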

How the data were processed

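In all, 36 small RNA libraries were analysed; reads were single-end per the labels and paired-end per the series text. Per the file headers, each deposited file lists a count for every miRNA entry, as made by the authors. The submitters' processing notes name GRCm38. The sources used here do not give the aligner, the counter, the miRNA release or the use of strand, so that the assignment of reads between the miR-24 hairpins and their antisense hairpins Mir3074-1 and Mir3074-2 is not known; miR-3074-2-3p, which lies opposite miR-24-2-5p, had 0 counts in every group.

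Each library had 2119 entries, of which 9 are named STD, do not name a miRNA and took 32.0% to 86.7% of its counts. They stayed out of library sizes and tests. The 2110 others gave 1966 names, and for a name with several entries, here miR-24-3p, the entry with the highest total was kept. A count of 0 allows 3 counts, or 11.0 to 46.7 CPM among AGO1/3/4 libraries and 51.4 to 5034 CPM among AGO2 libraries; this limit covers only the error of counting.

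The test was edgeR's quasi-likelihood F test (version 4.0.16, R 4.3.3; TMM, filterByExpr at 10 counts, Benjamini-Hochberg adjustment), fitting the 22 and the 14 libraries as 2 experiments with a mean per group. This left 382 and 98 miRNAs. Log2 ratios within a library used a pseudocount of 0.5 and two-sided exact permutation tests over every split of the libraries. These were adjusted over 22 ratios of a to b and 25 ratios of arms. The permutation code was checked against SciPy 1.17.1. Scripts were tested on simulated data. Alternatives were other scalings, DESeq2 1.42.0, no filter, all locus entries, groups fitted alone, a replicate block, another pseudocount and leaving out libraries. Leaving out naive Cre control libraries B and C together, the same alternatives for the differences of effects and leaving out libraries from the arm ratios were chosen after seeing the data. No pair of replicates agreed within sampling noise (48 pairs, lowest chi-square per degree of freedom 1.88).

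The members and lists were chosen with earlier results of these data known. All 10 members are described; miRNAs of like profile are the 3 with the smallest root mean square difference of centred group means of log2(CPM + 1). Sequences and positions are from RefSeq and its GRCm38.p6 annotation.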

Additional observations from a re-analysis of the deposited data

Results flagged for a closer look

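In 4 cases a single library stood apart from the 3 others of its group. The search covered 67 sets of 4 values, each a miRNA level or a ratio of a to b in a group. For independent sets chance gives about 1 in 20, but these sets share libraries. miR-23a-5p had 3287 CPM in AGO2 KO replicate E at day 5, above the next library at 2682 CPM; that replicate held 25 counts of it, and miR-5099 took 52.3% of its counts. miR-27a-3p had 495 CPM in naive AGO2 KO replicate G, on 3 counts, below the next library at 989.9 CPM. miR-27a-5p had 284 CPM in AGO134 KO replicate 4 at day 7, the shallowest library of that group, above the next at 136 CPM. miR-23b-3p had 4475 CPM in naive WT replicate 4, above the next at 3625 CPM.

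For 4 members the knockout effect of AGO134 KO differed between day 14 and day 7, by the interaction term of edgeR's fit. The differences, day 14 minus day 7, were -0.98 for miR-24-2-5p, -0.76 for miR-27a-3p, -0.54 for miR-23a-3p and -0.53 for miR-23b-3p.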

How the results depend on the processing

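The number of members called depended most on the scaling. For AGO134 KO against WT in naive cells, 3 members were called, all higher. The count was 1 (miR-27b-5p, lower) under library size, 6 (all lower) under scaling to the STD entries and 0 after loess offsets. It was 0 with no filter on low counts, 1 with all locus entries kept and 0 with these groups fitted alone. At day 7, where 5 were called, it was 1 under library size, 1 under STD scaling, 2 after loess offsets and 1 with no filter. At day 14 the count of 1 became 3 under STD scaling and 2 with all locus entries. For AGO2 KO against Cre control cells at day 5 the count of 2 became 5 under STD scaling and 1 after loess offsets. From day 7 to day 14 the 6 members of AGO134 KO became 2 under STD scaling, and the 7 of WT became 4 under library size, 2 under STD scaling and 4 with no filter. From naive cells to day 5 the 2 of AGO2 KO became 6 under STD scaling, and the 5 of Cre control cells became 1 after loess offsets and 0 without libraries B and C. The 4 differences of effect between days 14 and 7 became 1 under library size, 0 under STD scaling and 2 with no filter. For AGO2 KO, day 5 minus naive, the count of 0 became 1 with DESeq2's size factors, 1 with DESeq2 itself, 4 under STD scaling and 2 with all locus entries. Under STD scaling the median of all miRNAs moved with the members. For AGO134 KO against WT it was -0.77 in naive cells, -0.63 at day 7 and -0.44 at day 14. For AGO2 KO against Cre control cells at day 5 it was -1.59. The cause was not tested.

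STD scaling reversed the direction of 10 values that were called under TMM or under STD scaling; 15 called under neither also changed sign, with 4 of AGO134 KO against WT at day 7 and 5 at day 14 among them. In naive cells these were miR-23a-3p (-0.47), miR-27a-3p (-0.59), miR-24-3p (-0.63), miR-23b-3p (-0.45) and miR-27b-3p (-0.38); at day 7 miR-23a-3p (-0.089), miR-24-3p (-0.25), miR-23b-3p (-0.15) and miR-27b-3p (-0.13), all for AGO134 KO against WT; and for AGO2 KO at day 5 miR-27a-3p (-1.46).

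Leaving out 1 library at a time gave 0 to 3 members in naive AGO134 KO cells, 4 to 5 at day 7 and 1 to 2 at day 14 (2 without KO replicate 4). It gave 0 to 1 for AGO2 KO in naive cells (1 without Cre control A) and 1 to 3 at day 5. Over time the ranges were 9 to 10 from naive cells to day 7 in each genotype, 4 to 6 from day 7 to day 14 in each, 2 in AGO2 KO and 1 to 6 in Cre control cells (3 without naive library A and 1 without C), and 2 to 3 for the differences of effect between days 14 and 7 and 0 to 1 for those of AGO2 KO. Log2 ratios of a to b kept their direction when a library was left out where groups had not overlapped. In Cre control cells, day 5 minus naive, they ranged from -1.92 to -0.66 for miR-23 and from -1.43 to -0.59 for miR-27. The miR-23 ratio of WT cells at day 14 minus day 7 ranged from -0.20 to -0.12. The miR-27 ratio ranged from 0.70 to 0.86 for AGO2 KO minus Cre control at day 5 and from 0.59 to 0.96 for AGO2 KO at day 5 minus naive cells, and from 1.30 to 1.49 in AGO134 KO and 0.89 to 1.09 in WT for day 7 minus naive cells. With a library left out of a comparison of 4 with 3, the exact test cannot reach as low a p, so that it says nothing on stability there. For day 7 against naive cells, 3 against 4 libraries allow the same smallest p as 4 against 4, 0.02857.

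Same-numbered replicates did not pair (correlations of their deviations -0.24 to 0.14). With the replicate block the counts were 3, 5 and 1 for AGO134 KO in naive cells and at days 7 and 14, 10 and 5 in AGO134 KO and 10 and 6 in WT over time, and 2 in AGO2 KO and 6 in Cre control cells; it changed the call of miR-23a-3p only, lost from day 7 to day 14 in AGO134 KO (adjusted p = 0.0501) and WT (adjusted p = 0.0636) and gained from naive cells to day 5 in Cre control cells (adjusted p = 0.0458).

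Depth limits the AGO2 experiment: 4 members could not be tested there, and naive values rest on a few counts.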
